A study of Mus musculus with 6 samples.

Results

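The solute carriers (SLC) are the membrane proteins that move small molecules across the plasma membrane and the membranes of organelles: sugars, amino acids, nucleosides, vitamins, metals, inorganic ions and the substrates of mitochondria. They were taken as all genes whose array annotation gave a single symbol beginning with Slc and a family number. By this rule 117 of the 5755 genes with a single symbol on the array were SLC genes, covered by 144 of 8734 probes. Of these, 114 had values on at least 4 of 6 arrays and in both dye orientations, among 5644 such genes and 6807 rows in all. Slc12a4 had no value, Slc1a2 had values on 3 arrays and Slc3a2 on 1 array, and these 3 genes are not described further.

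The samples compared airway smooth muscle cells grown from tracheal explants of 2AR-OE mice, which overexpress the beta2-adrenergic receptor, with the same cells of NTG (nontransgenic) mice. Both were grown from explants in medium with 20% serum, RNA was taken at passages 8 to 10, and over 90% of such cells were stated to stain for smooth muscle actin. No source used here gives the promoter that drives the transgene, or the strain, age and number of the mice. Each of the 6 samples was 1 array on which the RNA of both genotypes competed. On 4 arrays (1A, 1B, 2A, 2B) the dye of the transgenic RNA was Cy5, and on the other two (1C, 2C) it was Cy3. Arrays with the same number form a set, and the labels do not say what the number means. An array stood for 1 replicate. Separate cultures or animals are not stated, so the p-values cover the spread among arrays, and that spread may be technical.

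Stimulation of the beta2 receptor makes cyclic AMP through the stimulatory G protein and relaxes airway smooth muscle. SLC proteins are grouped into families by sequence and mostly work as symporters, exchangers or facilitated carriers that use the gradients of sodium, protons or the substrate itself. In muscle cells they supply substrates and osmolytes such as myo-inositol and betaine, set intracellular pH and chloride, and extrude calcium in exchange for sodium.

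All values are log2 ratios, so they say how the genotypes differed and nothing of a gene's level. They are read as transgenic over nontransgenic, which is likely but not settled: on the 4 arrays of the more frequent orientation channel 1 holds the transgenic RNA, whereas their titles put the nontransgenic RNA first. If the ratio runs the other way, each sign below turns. The columns of the swapped arrays 1C and 2C were taken as already turned to the same direction. If they were not, the genotype and dye terms change places. The deposited arrays were centred, with medians between -0.0012 and 0.0007, and their median absolute deviations were 0.236 (1A), 0.277 (1B), 0.215 (2A), 0.198 (2B), 0.369 (1C) and 0.189 (2C). Array 1C stood apart: 63 of its probes lay at the table's lowest value, a ratio of 0.01, against 0 to 10 on the others. On 1C 22.8% of SLC genes were at least 2-fold from equality, with 21 on the higher side and 5 on the lower, against 15.4% of all rows on that array. On the other 5 arrays the share was 3.51% to 6.14% of SLC genes and 2.70% to 6.94% of rows.

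Of the 114 SLC genes, 3 (2.63%) passed the test for genotype, against 7.11% of all rows. Slc5a3, the sodium/myo-inositol cotransporter, and Slc25a23, a calcium-dependent mitochondrial ATP-Mg/phosphate carrier, were lower in transgenic cells (2 genes, 1.75%, against 3.09% of rows). Slc38a4, a sodium-coupled neutral amino acid transporter that is paternally expressed in mouse, was higher (1 gene, 0.877%, against 4.03% of rows). The test was limma with a genotype and a dye term over all rows, and a gene was called at a Benjamini-Hochberg adjusted p under 0.05. At an unadjusted p under 0.05 there were 25 SLC genes (21.9%, against 27.7% of rows). Above 0 lay 59 SLC genes (51.8%, against 50.3% of rows). The median ratio of the SLC genes was 0.0094 on the log2 scale, against 0.0018 for all rows, and the median size of the ratio was 0.178, against 0.173. For 74 SLC genes (64.9%, against 65.9% of rows) the 95% confidence interval lay within 1.5-fold on both sides. The number of calls depended on single arrays, over all rows as well. Without array 2A or 2B only Slc5a3 passed (0.877% of SLC genes), when 2.49% and 2.57% of rows passed. Without array 2C, array 1C alone stands for the Cy3 orientation and is assumed to vary like the Cy5 arrays. That fit reads the values of 1C, such as a ratio of -3.05 for Slc34a1 and 1.81 for Slc17a9. With set as a random block, 2 SLC genes passed (1.75%, against 2.89% of rows), Slc5a3 and Slc25a23. In cultures of mixed cells, fewer cells of a type and less RNA per cell cannot be told apart.

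The promoters of the 3 called genes are shown because the receptor acts through cyclic AMP, whose response element is known by its letters; the windows are the 250 bases before a RefSeq transcript start (GRCm38.p6, 5′ to 3′ on the gene's strand) and capitals mark the core TGACG where it occurs. The first is chr16:92058072-92058321 on the plus strand, the second chr17:57059864-57060113 on the minus strand and the third, the middle of 3 annotated starts, chr15:97031214-97031463 on the minus strand.
Slc5a3: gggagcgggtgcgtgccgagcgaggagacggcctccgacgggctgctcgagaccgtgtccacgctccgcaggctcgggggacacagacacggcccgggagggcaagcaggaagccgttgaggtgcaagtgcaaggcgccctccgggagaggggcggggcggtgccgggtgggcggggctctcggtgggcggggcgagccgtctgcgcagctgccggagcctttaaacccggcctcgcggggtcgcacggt
Slc25a23: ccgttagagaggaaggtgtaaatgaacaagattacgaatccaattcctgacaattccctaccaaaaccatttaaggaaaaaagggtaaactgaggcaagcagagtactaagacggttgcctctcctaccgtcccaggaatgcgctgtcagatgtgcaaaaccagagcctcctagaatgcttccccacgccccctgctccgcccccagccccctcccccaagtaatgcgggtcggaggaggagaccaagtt
Slc38a4: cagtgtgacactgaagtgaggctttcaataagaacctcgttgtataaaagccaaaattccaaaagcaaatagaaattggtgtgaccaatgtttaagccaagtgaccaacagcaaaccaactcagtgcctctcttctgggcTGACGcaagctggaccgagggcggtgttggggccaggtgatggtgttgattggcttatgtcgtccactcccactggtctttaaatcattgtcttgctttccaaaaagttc
The Slc5a3 window was rich in G and C (74.8%) and held neither the core nor the full element TGACGTCA on either strand, and the same held for the Slc25a23 window at 52.4% G and C. The Slc38a4 window held 1 core, whose first base lies 110 bases before the start, and the windows of its other annotated starts held none. A promoter window was at hand for 94 of the measured SLC genes. Over their 135 windows, 28 (20.7%) held the core and 3 (2.22%) the full element, those of Slc25a25, Slc25a36 and Slc38a6. Over all 32851 promoters the shares were 17.8% and 1.55%. Each full element also counts as a core. Of the 3 genes with the full element, named for it and not for their ratios, none passed the test: Slc25a25 had -0.09 ± 0.079, Slc25a36 0.39 ± 0.25 and Slc38a6 -0.0044 ± 0.16.

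Slc5a3 (Entrez Gene 53881) brings myo-inositol, an osmolyte and the precursor of phosphoinositides, into the cell. Its log2 ratio was -0.71, -0.93, -1.01 and -0.97 on 1A, 1B, 2A and 2B, and -1.59 and -1.19 on 1C and 2C. All 6 arrays lay below 0, and both swapped arrays lay below the other 4. The fitted ratio was -1.15 ± 0.084 (SE, n = 6 arrays; 95% interval -1.35 to -0.94), which is 2.22-fold lower in transgenic cells (1.92-fold to 2.56-fold; limma, adjusted p = 0.00412). It was -1.09 in set 2 and -1.20 in set 1, and leaving out any array gave -1.25 to -1.05 with adjusted p of 0.00192 to 0.0225. The call was lost when each set was counted as 1 value (adjusted p = 0.167), and over all 22 alternatives the adjusted p was 0.00192 to 0.234, the highest with the swapped columns read as not yet turned. With each set as 1 value 0 of 6772 rows passed, so that lost call is not particular to Slc5a3. Slc5a3 has 1 probe on the array, its position in the gene is not given, and the RefSeq gene table places Mrps6, a mitochondrial ribosomal protein gene not analysed here, over the same stretch.

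Slc25a23 (Entrez Gene 66972) exchanges ATP-Mg for phosphate across the inner mitochondrial membrane under the control of cytosolic calcium. Its log2 ratio was -0.32, -0.32, -0.85 and -0.80 on 1A, 1B, 2A and 2B, and -0.67 and -1.03 on 1C and 2C. All 6 arrays lay below 0, and in each orientation the set 2 arrays lay further below than those of set 1. The fitted ratio was -0.71 ± 0.115 (SE, n = 6; interval -0.99 to -0.43; adjusted p = 0.022), or 1.64-fold lower in transgenic cells. By set it was -0.93 in set 2 and -0.49 in set 1, and the difference of -0.46 ± 0.083 did not pass the test over all rows (adjusted p = 0.0747). The call was lost without array 2A (adjusted p = 0.0657), 2B (0.0699) or 1C (0.0626), with array weights (0.0622) and with each set as 1 value (0.355), with the ratio between -0.80 and -0.66 in those fits. With each set as 1 value 0 of 6772 rows passed, so that lost call is not particular to Slc25a23. Over the 22 alternatives the adjusted p was 0.00443 to 0.528.

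Slc38a4 (Entrez Gene 69354), also called SNAT4, carries neutral and some cationic amino acids with sodium and is best known from liver and placenta. Its log2 ratio was 1.80, 0.64, 2.14 and 1.68 on 1A, 1B, 2A and 2B, and 0.59 and 0.80 on 1C and 2C. All 6 arrays lay above 0, with 1A, 2A and 2B at 1.68 or more and the other three at 0.80 or less. The fitted ratio was 1.13 ± 0.206 (SE, n = 6; interval 0.63 to 1.63; adjusted p = 0.0311), or 2.19-fold higher in transgenic cells, at 1.36 in set 2 and 0.90 in set 1. The call was lost in 10 of 22 alternatives, among them those with set as a random block (adjusted p = 0.105) or without array 1A (0.0812), 2A (0.074), 2B (0.0954) or 1C (0.11), with ratios of 1.03 to 1.28 over all the fits that left out an array. Its adjusted p was 0.0208 to 0.314 over the alternatives.

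Slc23a2, the sodium-dependent vitamin C transporter SVCT2, stood at the threshold. On arrays 1A, 1B, 2A and 2B its log2 ratio was -0.48, -0.75, -1.0 and -0.87, and on arrays 1C and 2C it was -0.67 and -0.0006. The fitted ratio was -0.56 ± 0.121 (interval -0.85 to -0.26; adjusted p = 0.0501). Only array 2C lay at equality. The gene passed in 9 of 22 alternatives, both without array 2C (ratio -0.72, adjusted p = 0.0129) and in fits that kept it, such as that with no dye term (0.0374). It did not pass without array 1C (ratio -0.39, adjusted p = 0.165) or with set as a random block (0.172), and the adjusted p was 0.0129 to 0.395 over the alternatives.

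**Figure D1:**
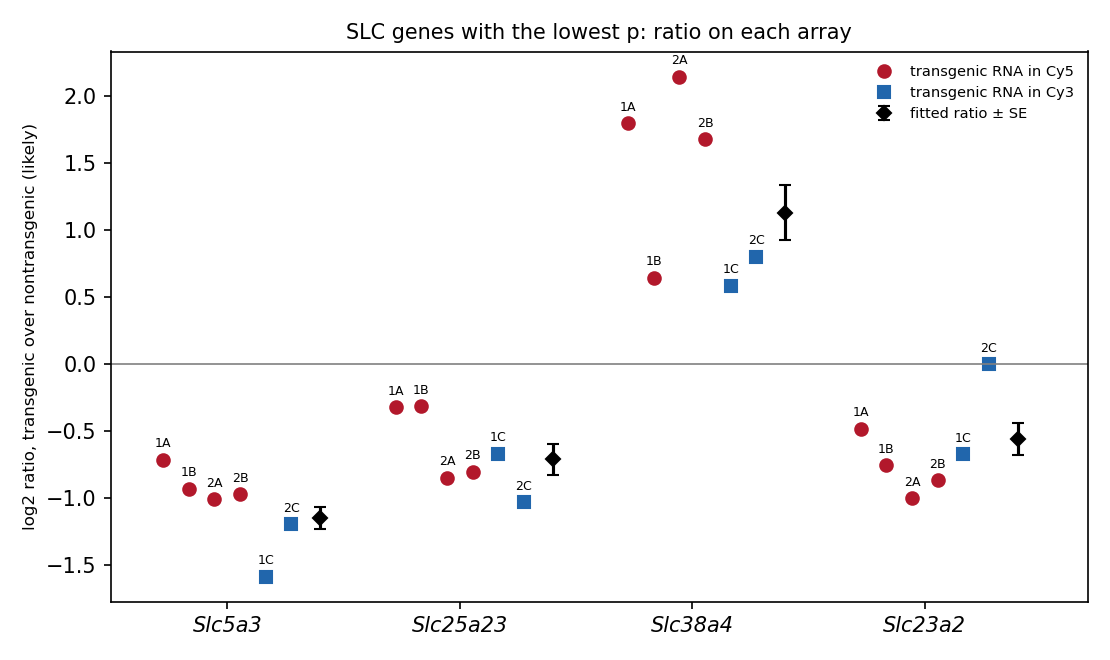
Log2 ratio of transgenic over nontransgenic cells (likely direction) on each array for the 4 SLC genes with the lowest p, with circles for transgenic RNA in Cy5, squares for Cy3 and diamonds for the fitted ratio with its standard error. Slc5a3 and Slc25a23 lie below 0 and Slc38a4 above 0 on all 6 arrays, whereas Slc23a2 lies at 0 on array 2C.

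The remaining SLC genes are described by the substrate class of their family, and none of them passed the test. Over the 13 classes the median ratio lay between -0.17 and 0.19 where a class had more than 3 genes. Within each class the genes with the lowest and the highest fitted ratio are named, and the other members are given by range and count.

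Sugar and polyol carriers numbered 9, with 6 below 0 and 3 above and a median of -0.17. Slc5a3 was the lowest. The highest was Slc2a2, the low-affinity glucose transporter GLUT2, at 0.31 ± 0.24, with -0.53, -0.42, 0.93 and 0.07 on arrays 1A to 2B and 1.10 and 0.11 on 1C and 2C. Its sign differed between arrays of the same orientation. The 4 facilitated glucose transporters of family 2 (Slc2a2, Slc2a6, Slc2a8 and Slc2a12) lay between -0.19 and 0.31, and only 1 of them had an interval within 1.5-fold. That gene, Slc2a12, had 0.18 ± 0.105 as the mean of 3 probes that differed in sign, at -0.32, 0.44 and 0.42. Slc5a1, the sodium/glucose cotransporter SGLT1 and the other measured member of the family of Slc5a3, had 0.05 ± 0.083, with an interval of -0.15 to 0.25. Slc5a1 is singled out because it shares the family of the called gene.

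Amino acid and peptide carriers numbered 14, with 9 above 0 and 5 below, a median of 0.035 and 1 call, Slc38a4. The lowest was Slc15a4, a proton-coupled histidine and peptide transporter of endosomes and lysosomes, at -0.34 ± 0.105 (adjusted p = 0.109), with every array below 0 between -0.60 and -0.10. Of the other measured members of the family of Slc38a4, Slc38a1, a glutamine transporter, had 0.13 ± 0.106 and Slc38a6, a less studied member, -0.0044 ± 0.16. Cationic and large neutral amino acids enter mainly through family 7. Its 4 measured members, the arginine and lysine transporters Slc7a1 and Slc7a2 and the exchangers Slc7a7 and Slc7a8, lay between -0.0079 and 0.20, all with intervals within 1.5-fold. In this class 5 genes had the same sign on all 6 arrays: Slc38a4, Slc36a1, Slc3a1 and Slc7a2 above 0 and Slc15a4 below. Slc36a1, which exports amino acids from lysosomes with protons, was chosen after its values were seen; it had 0.24 ± 0.067, with arrays between 0.04 and 0.42 (adjusted p = 0.0882).

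Mitochondrial carriers of family 25 were the second largest class, with 17 genes, 8 above 0 and 9 below, a median of -0.024 and 1 call, Slc25a23. The highest, Slc25a34, a little characterised inner membrane carrier, had a fitted ratio of 0.77 ± 0.43. It had 3.48 on array 1C and between -0.42 and 0.10 on the other 5 arrays, and without 1C its ratio was -0.08. Slc25a25, a calcium-dependent ATP-Mg/phosphate carrier of the same subgroup as Slc25a23, had -0.09 ± 0.079. The interval lay within 1.5-fold for 10 of the 17 carriers.

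Carriers of organic ions, lipids and vitamins were the largest class, with 19 genes, 12 above 0 and 7 below, and the highest class median among those with more than 3 genes, 0.19. The lowest was Slc23a2. The highest was Slc22a30, a rodent member of the organic anion transporter family measured on 5 arrays, at 0.73 ± 0.27 (n = 5; adjusted p = 0.169). It had 2.40 on array 1C, against -0.34 to 0.63 on the others, and 0.29 without 1C. Slc46a1, the proton-coupled folate transporter, was chosen after its values were seen, because its ratio of 0.69 ± 0.49 combined the most widely spread arrays of this class. On arrays 1A, 1B, 2A and 2B it had -0.48, -0.51, -1.24 and -1.46, whereas on arrays 1C and 2C it had 4.17 and 0.42. Every Cy5 array lay below 0 and both Cy3 arrays above. The 4 fatty acid transport proteins of family 27 (Slc27a1, Slc27a2, Slc27a4 and Slc27a5) lay between -0.15 and 0.24.

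Nucleoside and nucleotide sugar carriers numbered 12, with 7 above 0 and 5 below and a median of 0.066. Slc29a1, the equilibrative nucleoside transporter ENT1 that moves adenosine, was the lowest at -0.39 ± 0.127 (adjusted p = 0.122). Its arrays were all below 0, at -0.99, -0.16, -0.29 and -0.35 on 1A to 2B and -0.27 and -0.37 on 1C and 2C. The value on 1A came from 1 of its 3 probes, which read -2.49 there while the others read -0.37 and -0.12. Slc35f2, a family 35 member, was the highest at 0.77 ± 0.28 (adjusted p = 0.146), with 2.48 on array 1C, -0.12 to 0.34 on the rest and 0.24 without 1C. The 10 members of family 35, most of which carry nucleotide sugars into the Golgi, lay between -0.22 and 0.77, with 8 intervals within 1.5-fold.

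Metal carriers numbered 13, with 6 above 0 and 7 below and a median of -0.069. Slc39a10, a zinc importer of the ZIP family, was the highest at 0.77 ± 0.50, with 3.37 on array 1A, 0.25, 0.05 and 0.11 on 1B, 2A and 2B, and 0.89 and 0.31 on 1C and 2C. All arrays were above 0, but without 1A the ratio was 0.37. Slc39a4, the zinc importer known from the gut, was the lowest at -0.67 ± 0.46 and divided by set rather than by orientation. In set 2 it had -0.14, 0.05 and 0.80 on 2A, 2B and 2C, and in set 1 -1.84, -2.43 and -1.31 on 1A, 1B and 1C. The 3 arrays of set 1 lay below all arrays of set 2, and the fitted ratios were 0.37 in set 2 and -1.72 in set 1. The zinc exporters of family 30 (Slc30a1, Slc30a4, Slc30a5, Slc30a6, Slc30a7 and Slc30a9) lay between -0.22 and 0.10. The iron carriers Slc11a2, the importer DMT1, and Slc40a1, the exporter ferroportin, had -0.07 ± 0.080 and 0.06 ± 0.15, and are named as the iron carriers of the class.

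Inorganic anion carriers numbered 11, with 4 above 0 and 7 below and a median of -0.044. Slc34a1, the sodium/phosphate cotransporter known from the kidney, had the lowest fitted ratio of all SLC genes, -1.63 ± 0.71 (adjusted p = 0.202), but this rested on 1 value at the floor. It had 0.60, 0.10, 0.72 and 0.79 on arrays 1A to 2B, -6.64 on 1C and -0.98 on 2C, and with the floor value set to missing the ratio was -0.21. The Cy5 arrays were all above 0 and the Cy3 arrays below. Slc13a4, a sodium/sulfate cotransporter, was the highest at 0.48 ± 0.124 (adjusted p = 0.0771), above 0 on 4 of 6 arrays. It read 1.10 and 0.64 on 1C and 2C but averaged 0.08 over the Cy5 arrays, with a dye term of -0.40. Slc4a5, a sodium/bicarbonate cotransporter, was chosen after its values were seen, as a gene past 1.5-fold, at -0.60 ± 0.24 (adjusted p = 0.173). Its arrays lay between -1.64 and 0.17, with 5 of 6 below 0. The widely expressed chloride/bicarbonate exchanger Slc4a2 and the sodium/phosphate cotransporter Slc20a2, named as housekeeping anion carriers, had -0.02 ± 0.095 and 0.06 ± 0.071. The value of Slc20a2 averaged 2 probes of opposite sign, at -0.17 ± 0.067 and 0.30 ± 0.098. Slc20a1, the other measured member of family 20, had -0.30 ± 0.32, with 1.45 on array 1C and between -1.08 and -0.60 on the others. Those 5 arrays, of both orientations, were thus all below 0. The fitted ratio of Slc20a1 was -0.95 in set 2 and 0.34 in set 1, where array 1C belongs.

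Cation and cation-chloride carriers numbered 6, with 4 above 0 and 2 below and a median of 0.046. Slc8a1, the plasma membrane sodium/calcium exchanger NCX1 that extrudes calcium in smooth muscle, was the highest at 0.35 ± 0.097 (adjusted p = 0.0888). Its arrays read 0.58, 0.19, 0.25 and -0.03 on 1A to 2B and 0.53 and 0.36 on 1C and 2C, so that 5 of 6 lay above 0. Slc9a7, a sodium/proton exchanger of the Golgi, was the lowest at -0.43 ± 0.133 (adjusted p = 0.109), with all arrays below 0 between -0.86 and -0.09. Its set 2 arrays lay between -0.22 and -0.09 and its set 1 arrays between -0.86 and -0.50, without overlap. Slc12a2, the sodium-potassium-chloride cotransporter NKCC1 that loads smooth muscle with chloride, had 0.09 ± 0.093 and an interval of -0.14 to 0.32. Slc12a2 is named for that role and not for its ratio.

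The remaining classes were small. Of the 4 carboxylate carriers, Slc13a3, the sodium/dicarboxylate cotransporter, was the lowest at -0.24 ± 0.14 and Slc16a12, of the monocarboxylate family, the highest at 0.06 ± 0.38. The arrays of Slc16a12 ranged between -2.04 and 1.03, and its 95% interval between -0.88 and 1.00. Of the 3 vesicular transmitter carriers, Slc17a9, the vesicular nucleotide transporter, had 0.84 ± 0.49, with 3.92 on array 1C, -0.49 to 0.05 on the others and -0.13 without 1C. Slc18a2, the vesicular monoamine transporter, was the lowest at -0.13 ± 0.119 and lay below 0 on every Cy5 array and above 0 on both Cy3 arrays. Slc6a12, the betaine and GABA transporter BGT1, had 0.77 ± 0.36, with 2.81 on array 2C and -0.07 to 0.21 elsewhere. Without 2C its ratio was 0.05, and without 1C it was 1.48 (adjusted p = 0.00676, against up to 0.713 under other alternatives), so that 1 array carried it. Slc9a3r1 encodes NHERF1, a scaffold that binds the beta2 receptor's tail and regulates sodium/proton exchange and is no carrier itself. It had 0.09 ± 0.18, with 0.31, 0.08, 0.69 and 0.76 on arrays 1A to 2B and -0.86 and 0.29 on 1C and 2C, while its relative Slc9a3r2 had -0.02 ± 0.087. Among the 3 other genes, Slc66a1, a lysosomal exporter of cationic amino acids, was the highest at 0.13 ± 0.095. Slc6a19os, a transcript from the strand opposite Slc6a19 and no carrier, was the lowest at -0.19 ± 0.187.

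**Figure D2:**
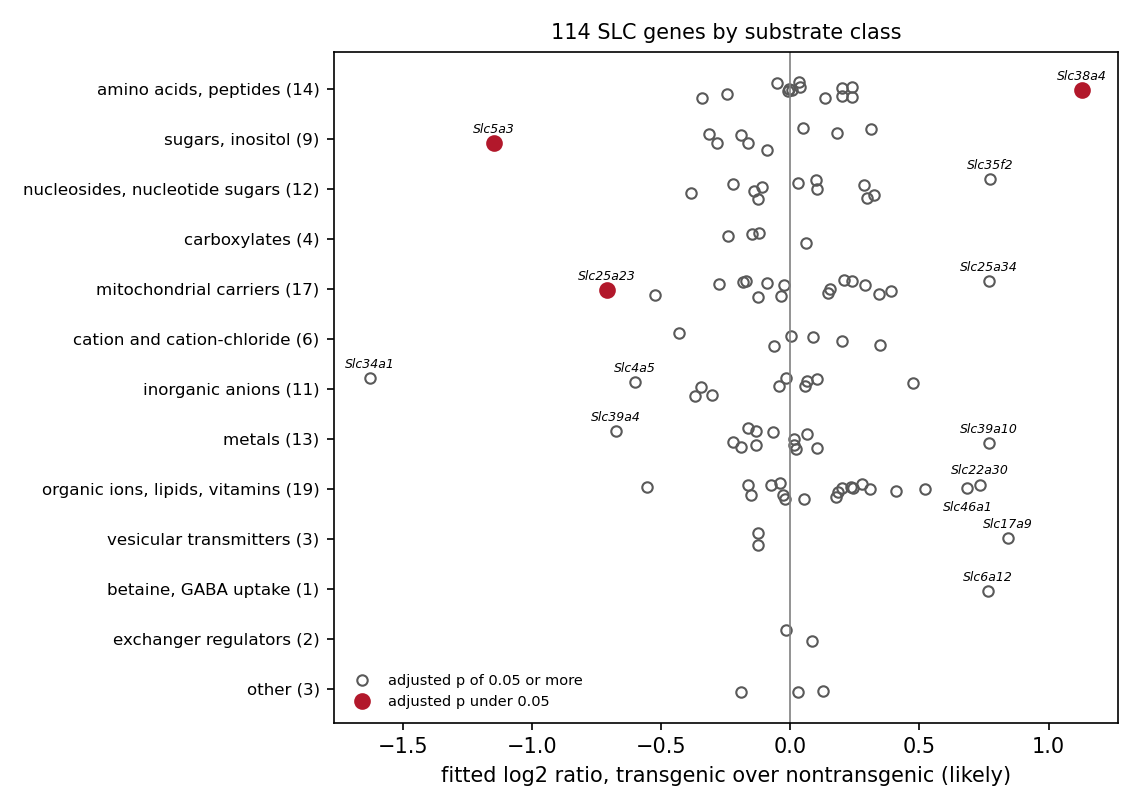
Fitted log2 ratio of transgenic over nontransgenic cells (likely direction) for the 114 SLC genes, 1 point per gene, in rows by substrate class with the number of genes in brackets; filled points had an adjusted p under 0.05. Most points lie close to 0, apart from the row that holds Slc6a12 alone, the filled points are Slc38a4, Slc5a3 and Slc25a23, and labels mark these and the genes at 0.6 or more on either side.

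Many of the larger ratios came from 1 array. At least 1.5-fold on either side, with no test, lay 13 SLC genes (11.4%, against 8.79% of rows). Only the 3 called genes and Slc39a10 among them had the same sign on all 6 arrays. For Slc17a9, Slc25a34, Slc35f2, Slc22a30 and Slc46a1 the highest value was that of array 1C, the array with the widest spread. For Slc39a10 it was array 1A and for Slc6a12 array 2C. Signal intensities were not used here, so whether these spots were dim was not tested.

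**Figure D3:**
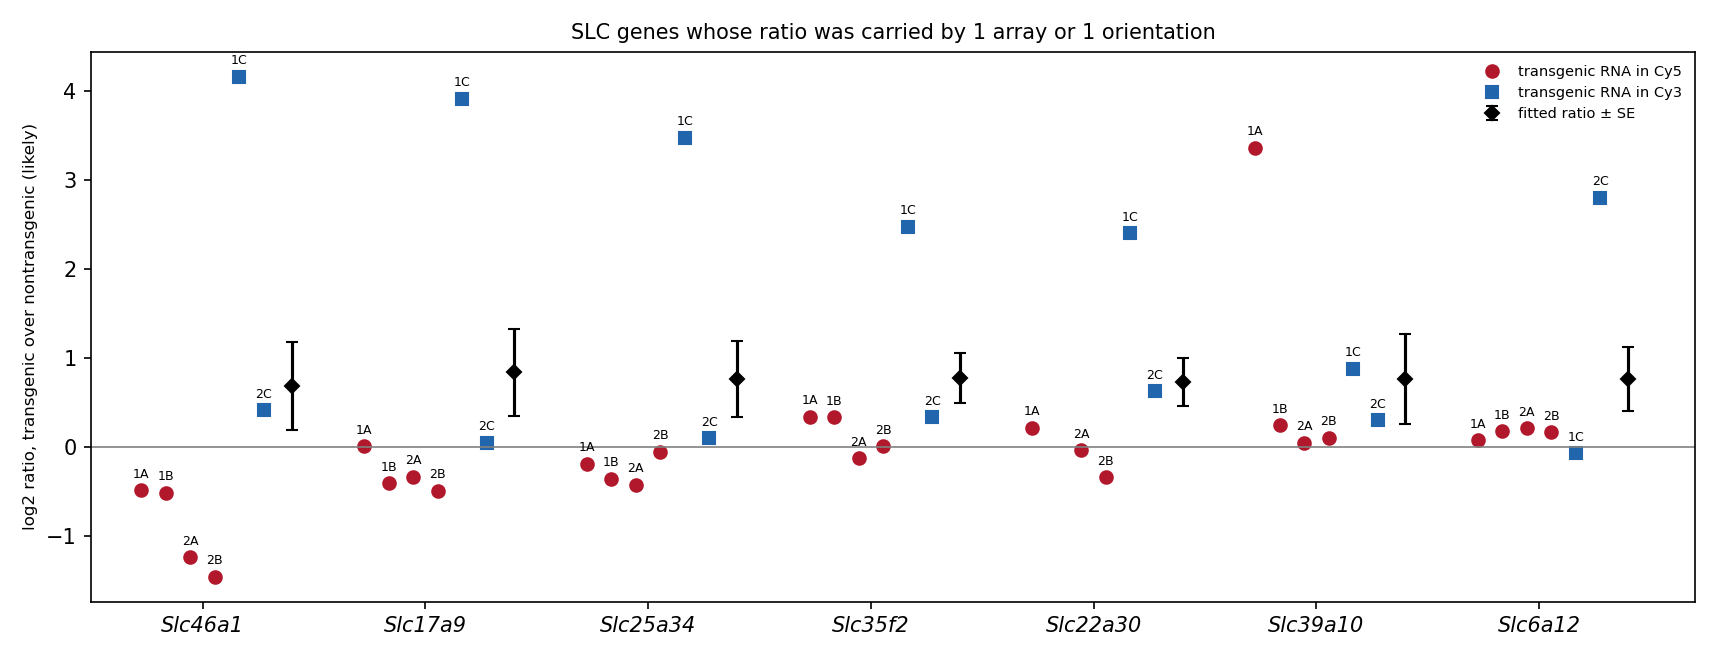
Log2 ratio of transgenic over nontransgenic cells (likely direction) on each array for 7 SLC genes, with circles for transgenic RNA in Cy5, squares for Cy3 and diamonds for the fitted ratio with its standard error. One array lies far above the rest for each gene: 1C for Slc46a1, Slc17a9, Slc25a34, Slc35f2 and Slc22a30, 1A for Slc39a10 and 2C for Slc6a12.

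The sign over all 6 arrays gave a view that does not rest on the fit. Of the 112 SLC genes with values on every array, 15 (13.4%) kept 1 sign, against 19.7% of rows. Above 0 were 9 (8.04%, against 11.2%): Slc38a4, Slc39a10, Slc36a1, Slc3a1, Slc7a2, Slc12a7, Slc35e1, Slc35f5 and Slc44a1. Below 0 were 6 (5.36%, against 8.51%): Slc5a3, Slc25a23, Slc23a2, Slc29a1, Slc15a4 and Slc9a7. Those not described so far had small ratios, 0.20 ± 0.067 for the potassium-chloride cotransporter Slc12a7, 0.31 ± 0.102 for the choline transporter-like Slc44a1, 0.29 ± 0.074 for Slc35e1 and 0.32 ± 0.102 for Slc35f5. These were named after their signs were seen.

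The same fit gave the part of each ratio that depended on which dye the transgenic RNA carried. No SLC gene passed the test for dye (0 of 114, limma, against 0.0147% of rows), while 21 (18.4%, against 18.2% of rows) had an unadjusted p under 0.05, 16 of them (14%, against 10.2% of rows) with a dye ratio below 0. The mean ratios in the 2 orientations had a Pearson correlation of -0.158 over 114 SLC genes, against 0.171 over 6807 rows. Array 1C, with its wide spread and the floor value of Slc34a1, is 1 of the 2 Cy3 arrays. Its part in this correlation was not tested. On all 6 arrays, 14 of 112 SLC genes (12.5%, against 10.4%) had 1 sign in one orientation and the opposite sign in the other. Of these, 10 (8.93%, against 5.67% of rows) were below 0 with transgenic RNA in Cy5 and above 0 with it in Cy3: Slc18a2, Slc22a18, Slc25a33, Slc25a34, Slc25a40, Slc25a48, Slc27a4, Slc30a5, Slc35b2 and Slc46a1. The other 4 were above 0 in Cy5 and below 0 in Cy3: Slc34a1, Slc43a1, Slc7a1 and Slc20a2. The dye term furthest from 0, in log2 units, was 2.18 for Slc34a1, with its floor value on 1C, and the terms of Slc43a1, Slc7a1 and Slc20a2 were 0.14 to 0.18. Among the 10 genes the dye term was -1.61 for Slc46a1, -1.04 for Slc25a40, -1.02 for Slc25a34, -0.92 for the zinc exporter Slc30a5 and -0.91 for the pyrimidine nucleotide carrier Slc25a33. Their genotype terms were 0.69 ± 0.49, 0.15 ± 0.21, 0.77 ± 0.43, 0.10 ± 0.22 and -0.12 ± 0.14, and they were chosen after their values were seen. If the swapped columns had not been turned, the dye terms would be the genotype ratios of these genes and 0 of 114 SLC genes would pass. Without array 2C, 24 SLC genes passed the test for dye (limma), when 14.6% of rows did, but array 1C was then the only one in Cy3 and the spread came from the Cy5 arrays alone.

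**Figure D4:**
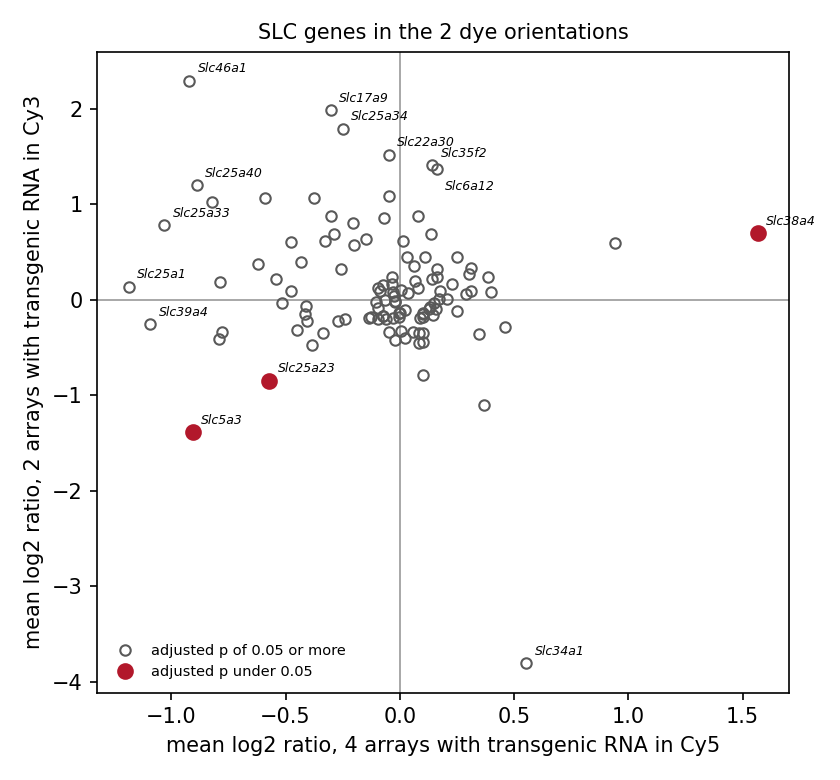
Mean log2 ratio of each SLC gene over the 4 arrays with transgenic RNA in Cy5 (horizontal) and over the 2 arrays with it in Cy3 (vertical); filled points had an adjusted p under 0.05. Slc5a3 and Slc25a23 lie below 0 on both axes and Slc38a4 above 0 on both, while Slc46a1, Slc25a40 and Slc25a33 lie in the upper left, where the orientations oppose each other.

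The sets were compared next, since they may mark separate cultures. No SLC gene passed the test for set 2 minus set 1 (0 of 114, limma, against 0% of rows), and 27 (23.7%, against 23.7% of rows) had an unadjusted p under 0.05. The fitted ratios of the 2 sets agreed less for SLC genes than for all rows. Their Pearson correlation was 0.038 over 112 SLC genes, against 0.392 over 6756 rows. Array 1C belongs to set 1, and its part in this was not tested. On all 6 arrays, 8 of 112 (7.14%, against 7.12% of rows) had opposite signs in the sets: Slc11a2, Slc16a10, Slc23a4, Slc27a1, Slc4a1, Slc4a2, Slc50a1 and Slc8b1. Each of these was above 0 in set 2 and below 0 in set 1, and their fitted genotype ratios were small, between -0.25 and -0.02. Slc39a4 had a larger gap between its sets but 1 array of set 2 below 0. Taking set as a fixed block, which leaves the ratio unchanged for genes with values on all 6 arrays and removes the difference between sets from the error, called 11 SLC genes (9.65%, against 17.2% of rows). These were the 3 called genes with Slc14a1, Slc25a11, Slc25a28, Slc35e1, Slc36a1, Slc39a4, Slc44a1 and Slc9a7.

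**Figure D5:**
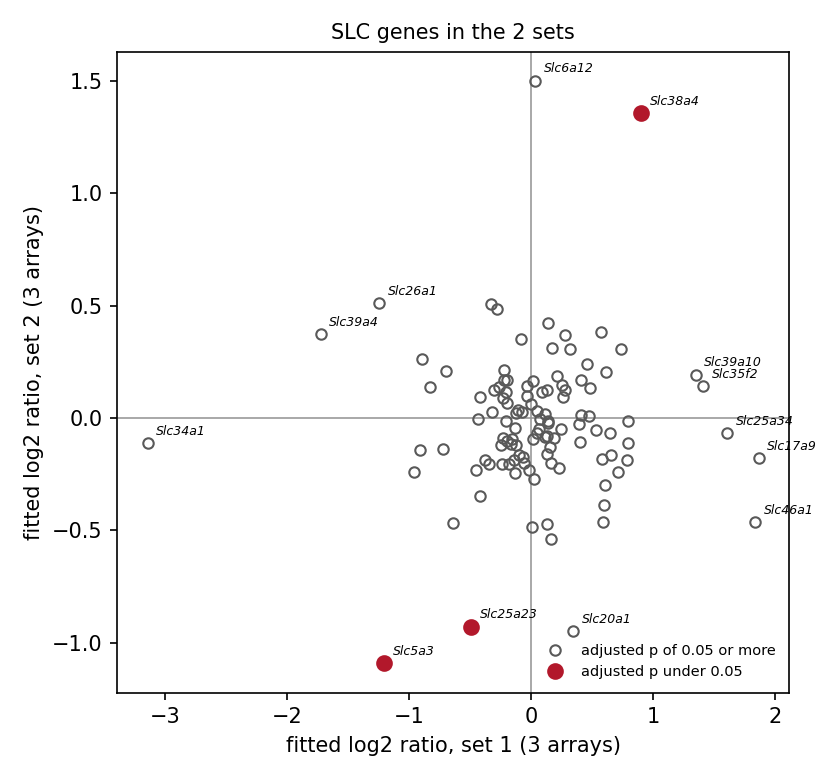
Fitted log2 ratio of each SLC gene in set 2 (vertical, 3 arrays) against that in set 1 (horizontal, 3 arrays); filled points had an adjusted p under 0.05 over all arrays. Slc5a3 and Slc25a23 lie below 0 and Slc38a4 above 0 in both sets, Slc6a12 is high in set 2 and near 0 in set 1, and Slc17a9, Slc25a34 and Slc46a1 are high in set 1 only, where array 1C belongs.

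Probes of 1 gene did not always read alike. Of 22 SLC genes with at least 2 probes tested, 9 had all probes on the same side of 0, and the median gap between the lowest and highest probe was 0.26. The widest gap, 1.09, was that of Slc35d1, a UDP-sugar transporter: 1 probe had 0.84 ± 0.44, with 3.66 on array 1C, and the other -0.25 ± 0.068 with all arrays below 0. When probes were tested singly, 6 SLC genes had a called probe. The matching shares over all probes and over all genes with several probes were not counted, so these counts have no background to be read against. For Slc7a2, the cationic amino acid transporter CAT2, 1 probe had 0.46 ± 0.066 (adjusted p = 0.0174), with arrays between 0.33 and 0.57, and the other -0.05 ± 0.111. For Slc31a1, the copper importer CTR1, 1 of 4 probes passed at -0.43 ± 0.071 (adjusted p = 0.0257), with all arrays between -0.71 and -0.13. Another Slc31a1 probe read -0.79, -1.54, -1.76 and -1.56 on arrays 1A to 2B but 2.20 and 0.63 on 1C and 2C, for a genotype ratio of -0.0002. The mean over its probes left Slc31a1 at -0.19 ± 0.071 (adjusted p = 0.155). For Slc14a1, the urea transporter UT-B, the probes had 0.31 ± 0.066 (adjusted p = 0.0484) and 0.25 ± 0.115. The multi-probe genes with a called probe were named after these values were seen, and Slc5a3, Slc25a23 and Slc38a4 have 1 probe each.

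Genes that work beside the carriers were read from lists chosen by function. Over all rows 7.11% passed the test, 3.09% lower and 4.03% higher, and 50.3% lay above 0, and the counts below are to be read against these shares. Of 4 measured tonicity and osmolyte genes Slc5a3 alone passed, and 3 lay below 0. Nfat5, the factor that drives that response, had -0.0078 ± 0.098, and the water channel Aqp1 had -0.41 ± 0.092 (adjusted p = 0.0534), below 0 on all 6 arrays. Slc6a12, the other osmolyte carrier measured, rested on 1 array as described. Of 11 measured ATF4 amino acid response and NRF2 genes, 9 lay below 0, the median was -0.18 and 2 passed, both lower. Txnrd1, thioredoxin reductase, had -0.68 ± 0.085 (adjusted p = 0.0109) and Shmt2, the mitochondrial serine hydroxymethyltransferase, -0.41 ± 0.077 (0.0327). Each lay below 0 on all 6 arrays. The amino acid carriers of that list, Slc7a1, Slc1a5 and Slc6a9, had -0.0079 ± 0.067, 0.03 ± 0.072 and 0.24 ± 0.126.

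Of 4 measured genes of the sodium-potassium pump, which builds the gradient that most SLC symporters use, the regulator Fxyd5 passed at -0.88 ± 0.134 (adjusted p = 0.0183). The pump's subunits Atp1b1 and Atp1b3 had 0.04 ± 0.105 and -0.08 ± 0.059. Of 7 measured genes of the vacuolar proton pump, which energises lysosomal and vesicular carriers, 6 lay above 0, the median was 0.13 and 0 passed (limma; 1 at an unadjusted p under 0.05, against 27.7% of rows). Of 21 ABC transporters, the ATP-driven counterpart of the SLC families, 13 lay above 0 with a median of 0.084, and Abcg2, a drug and urate exporter, passed at -1.25 ± 0.153 (adjusted p = 0.0104). Abcg2 read -0.71, -1.19, -1.27 and -1.29 on arrays 1A to 2B and -1.84 and -0.92 on 1C and 2C. All 6 arrays were below 0, as for Slc5a3. With set as a random block Abcg2, Fxyd5 and Txnrd1 passed (adjusted p of 0.047, 0.0429 and 0.0374) and Shmt2 did not (0.0942). The single organic anion transporter polypeptide measured, Slco2a1, had -0.01 ± 0.096.

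Some markers of cell types moved with genotype in the same comparison, in both directions. Of 14 listed smooth muscle markers 3 were measured, with a median of -0.05. Cnn1, calponin, passed at 0.59 ± 0.105 (adjusted p = 0.028), but not with set as a random block (0.0602). Smtn, smoothelin, had -0.05 ± 0.082 and Cald1, caldesmon, -0.12 ± 0.063 with all 6 arrays below 0. Of 12 fibroblast markers 6 were measured, with a median of 0.76, 4 above 0 and 2 below. Thy1 passed at 2.73 ± 0.207 (adjusted p = 0.00412) and Mfap5 at 0.81 ± 0.074 (0.0045), also with set as a random block (0.0134 and 0.0194). Dpt had 1.67 ± 0.46, with -1.01 on array 1B and 1.83 to 2.27 on the others, and Lum had 0.70 ± 0.165. Pdgfra had -0.02 ± 0.138, and Col1a1, a chain of type I collagen, had -1.21 ± 0.31. Col1a1 read -3.28 and -1.01 on 1C and 2C but between -0.61 and 0.24 on the Cy5 arrays. Dpt, Lum, Pdgfra and Col1a1, 4 genes, did not pass.

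Of 5 cartilage markers 1 lay above 0, and Col11a1 passed at -1.10, with and without the block (adjusted p = 0.00412, and 0.0134 with the block). All 4 epithelial markers had a fitted ratio above 0, but only Cdh1, which passed at 0.32, lay above 0 on all 6 arrays. Krt7 and Scgb1a1 lay below 0 on every Cy5 array and above 0 on both Cy3 arrays. All 3 neural markers lay below 0 and L1cam (-0.45) and Uchl1 (-0.46) passed, and of 4 striated muscle markers 2 lay above 0 and Mb passed at 0.29. With set as a random block Cdh1, L1cam, Uchl1 and Mb did not pass (adjusted p of 0.101, 0.0679, 0.109 and 0.122). Of 5 endothelial markers 0 lay above 0 and of 5 leukocyte markers 2 did, and 0 of either list passed (limma; 2 of each at an unadjusted p under 0.05). Ratios give no level, so the labelled cell type could not be checked by the abundance of its markers. The part of cell composition in the ratios of Slc5a3, Slc25a23 and Slc38a4 was not tested.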

How the data were processed

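The deposited table holds a log2 ratio for each probe and array. RNA was copied to cDNA, labelled with Cy3 or Cy5 and hybridised in competition, per the labels' protocols. How the authors scanned, corrected and normalized the arrays is not given in the sources used here. Array medians near 0 show that the deposited log2 values were centred. Probes were named from the platform annotation: 7540 had 1 symbol, 14 several and 1180 none, and all 117 SLC genes matched the RefSeq gene table through Entrez ID.

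Probes of a symbol were averaged per array, and rows needed values on at least 4 arrays and both orientations. The test was limma 3.58.1 in R 4.3.3 (functions lmFit and eBayes, a genotype and a dye coefficient over all 6807 rows and all 6 arrays, Benjamini-Hochberg adjusted p under 0.05), with an added coefficient for set 2 minus set 1. It was tested on simulated data. Tables and figures used Python 3.11.15, pandas 2.3.3, numpy 2.4.6 and matplotlib 3.10.9. Precision is limited by the number of arrays, since intensities were not used here. Arrays of a set were correlated as a random block at 0.295, so sets may pair arrays, and a fit with set as a random block stands beside the calls it changes. Named genes were those called, the lowest and highest of each substrate class, any with a fitted ratio of 0.7 or more on either side, and called genes of the functional lists. The members, lists and rules were chosen with earlier results of these data known. Substrate classes follow the SLC family number with single-gene exceptions. Promoter windows are RefSeq's for GRCm38.p6.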

Additional observations from a re-analysis of the deposited data

Results flagged for a closer look

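Slc39a10, a zinc importer, read 3.37 on array 1A, against 0.25, 0.05 and 0.11 on the other three arrays with transgenic RNA in Cy5. The distance between array 1A and its nearest neighbour filled most of the group's range, which flagged it. Over the 112 SLC genes with values on all these arrays, 3 had such a far array, and chance alone flags about 5% of groups.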

How the results depend on the processing

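The 3 calls for genotype became 4, with Slc23a2 added, when floor values were missing (7.27% of rows passed), without a dye term (6.76%) or with the median of probes (7.29%). They became the same 4 with values on all 6 arrays (7.3%) or equal array spread (8.92%), and stayed 3 with robust variances (6.9%). They also numbered 4 with quantile normalization (9.89%), but there Slc38a4 did not pass and Slc23a2 and Slc35e1 did. They became 11 with set as a fixed replicate block, 2 with set as a random replicate block, 19 on the 4 Cy5 arrays alone (15.4% of rows passed), 13 in set 2 alone (13.3%), 17 in set 1 alone (15.6%), 1 with array weights and 6 when each probe was tested alone. Each set as 1 value and columns read as not yet turned gave 0 calls each (limma, 8 and 21 at an unadjusted p under 0.05). With each set as 1 value 0 of 6772 rows passed, so no gene kept a call in that fit. With array weights 2.34% of rows passed. Leaving out 1 array gave 1 to 30 calls for genotype and 0 to 24 for dye, the highest without array 2C in both cases. Without 1C or 2C, and in each set alone, 1 array stands for the Cy3 orientation and is assumed to vary like the others. Without 2C a similar share of all rows passed for genotype, so the high count there is not particular to SLC genes. Without 1C, Slc6a12 alone passed for dye. Equal array spread gave 1 call for set 2 minus set 1, Slc39a4. With columns not yet turned, Slc5a3 had 0.24 and Slc25a23 0.14, both reversed. The causes were not tested. Under the 22 alternatives Slc5a3 lost its call in 1, Slc25a23 in 5 and Slc38a4 in 10, beside these reversals. Of 485 values of the 22 named SLC genes that did not pass, 442 stayed within 1 SD over arrays without a call, 11 moved further and 32 passed the test. Among the first 2 kinds, 43 had the other sign. The SD includes a gene's own outlying arrays, so staying within it is no measure of stability. Slc17a9, with an SD of 1.71, stayed within it at -0.13 without 1C, against 0.84 over all arrays. Depth and signal over background are unknown here.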
